A study of Mus musculus with 13 samples.

Results

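The genes described here are the nuclear-encoded subunits of the oxidative phosphorylation machinery in mouse embryonic stem (ES) cell-derived haemangioblasts and haemogenic endothelium. They were chosen by name alone: Nduf genes with the letter a, b, c, s or v and a number, the Sdh genes, genes beginning with Uqcr or Atp5, and Cox genes numbered 4 to 8. This gave 82 of the 45250 genes in the expression table, after 4 pseudogene rows had been left out. Complex I contributed 36 genes, complex II 4, complex III 8, complex IV 17 and ATP synthase 17. Atp5s and Atp5sl, which also go by Dmac2l and Dmac2, entered through their names only, and Ndufa4 is counted with complex I by its name although its product has been found in complex IV. Of the 82 genes, 75 reached 1 FPKM in 2 or more libraries, the filter on low values, and could be tested (34, 4, 8, 13 and 16 in the same order).

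Oxidative phosphorylation takes place in the inner mitochondrial membrane. Complex I and complex II take electrons from NADH and succinate, complex III passes them to cytochrome c, complex IV hands them to oxygen, and the proton gradient built on the way drives ATP synthase. Most subunits are encoded in the nucleus and a small core in mitochondrial DNA, so the complexes need both genomes, whereas complex II is made of nuclear products only. Cells leaving the pluripotent state are known to alter their balance of glycolysis and respiration.

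The libraries came from ES cells differentiated in culture. Wild-type (WT) cells of the CCB line, Lmo2-/- cells and Tal1-/- cells were grown as embryoid bodies, and Flk-1+ cells, enriched for haemangioblasts, were isolated with magnetic beads. Flk-1+ cells of WT and Lmo2-/- were also cultured in blast medium with VEGF and IL-6, and HE1, the first stage of haemogenic endothelium (Tie2+, Kit+, CD41-), was sorted. There were 3 libraries of each Flk-1+ genotype and 2 of each HE1 genotype, 13 in all. The methods give 1 ES line per genotype for these libraries, so genotype and line cannot be told apart. Lmo2 and Tal1 encode partners in a transcription factor complex needed for blood formation.

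The files give FPKM (fragments scaled to transcript length and to the fragments of a library) without counts, which leaves the depth unknown. In 12 libraries 11861 to 15641 genes were above 0, against 9694 in Lmo2-/- HE1 replicate 1. The most frequent ratio of a low gene's FPKM to that in WT Flk-1+ replicate 2, a measure of what 1 fragment is worth, was 4.21 in Lmo2-/- HE1 replicate 1 and between 0.719 and 1.77 in the other libraries. Lmo2 itself was at 22.8, 30.8 and 21.6 FPKM in WT and 2.63, 6.48 and 2.17 in Lmo2-/- Flk-1+ cells. The libraries labelled WT HE1 had 4.30 and 20.6 FPKM and those labelled Lmo2-/- HE1 had 6.42 and 0, so Lmo2 did not tell the HE1 labels apart and each direction between them rests on the labels. Tal1 was at 2.74, 3.41 and 2.88 FPKM in Tal1-/- and at 22 to 37.4 in WT Flk-1+ cells. The 7 markers of HE1 and endothelium summed to 727 to 830 FPKM in the HE1 libraries and to 5 to 14.9 in the Flk-1+ libraries.

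ATP synthase held the most abundant transcripts of the set. Atp5b, the catalytic beta subunit (chromosome 10, 128083273 to 128090391 in GRCm38), had a lowest FPKM of 189, a median of 243 and a highest of 463 over the 13 libraries. Atp5a1, the alpha subunit, lay between 70.5 and 114 FPKM. Atp5b was the highest member in all 13 libraries, and Atp5a1, its partner in the catalytic head, came next except in Lmo2-/- Flk-1+ replicate 1 and Lmo2-/- HE1 replicate 1.

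The highest member of complex I by mean was Ndufa10, an accessory subunit, at 19.6 to 227 FPKM with a median of 36.0 and a mean of 51.6. That rank rests on Lmo2-/- HE1 replicate 1: Ndufa4 had a median of 55.5 and a mean of 50.4, and without that library its mean of 49.3 was above the 37.0 of Ndufa10. Complex II was led by Sdha at 20.7 to 225 FPKM (median 33.7). Uqcrh, the hinge protein, led complex III at 12 to 56.7 FPKM (median 42.6). Cox6b1 led complex IV at 30.9 to 87.1 FPKM (median 49.1). The highest values of Ndufa10, Sdha, Cox6b1 and Atp5b all belonged to Lmo2-/- HE1 replicate 1. The median of the members' mean FPKM was 9.93 in complex I, 13.6 in complex II, 13.4 in complex III, 5.72 in complex IV and 15.3 in ATP synthase, so a typical subunit was expressed far below the leading ones.

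**Figure D1:**
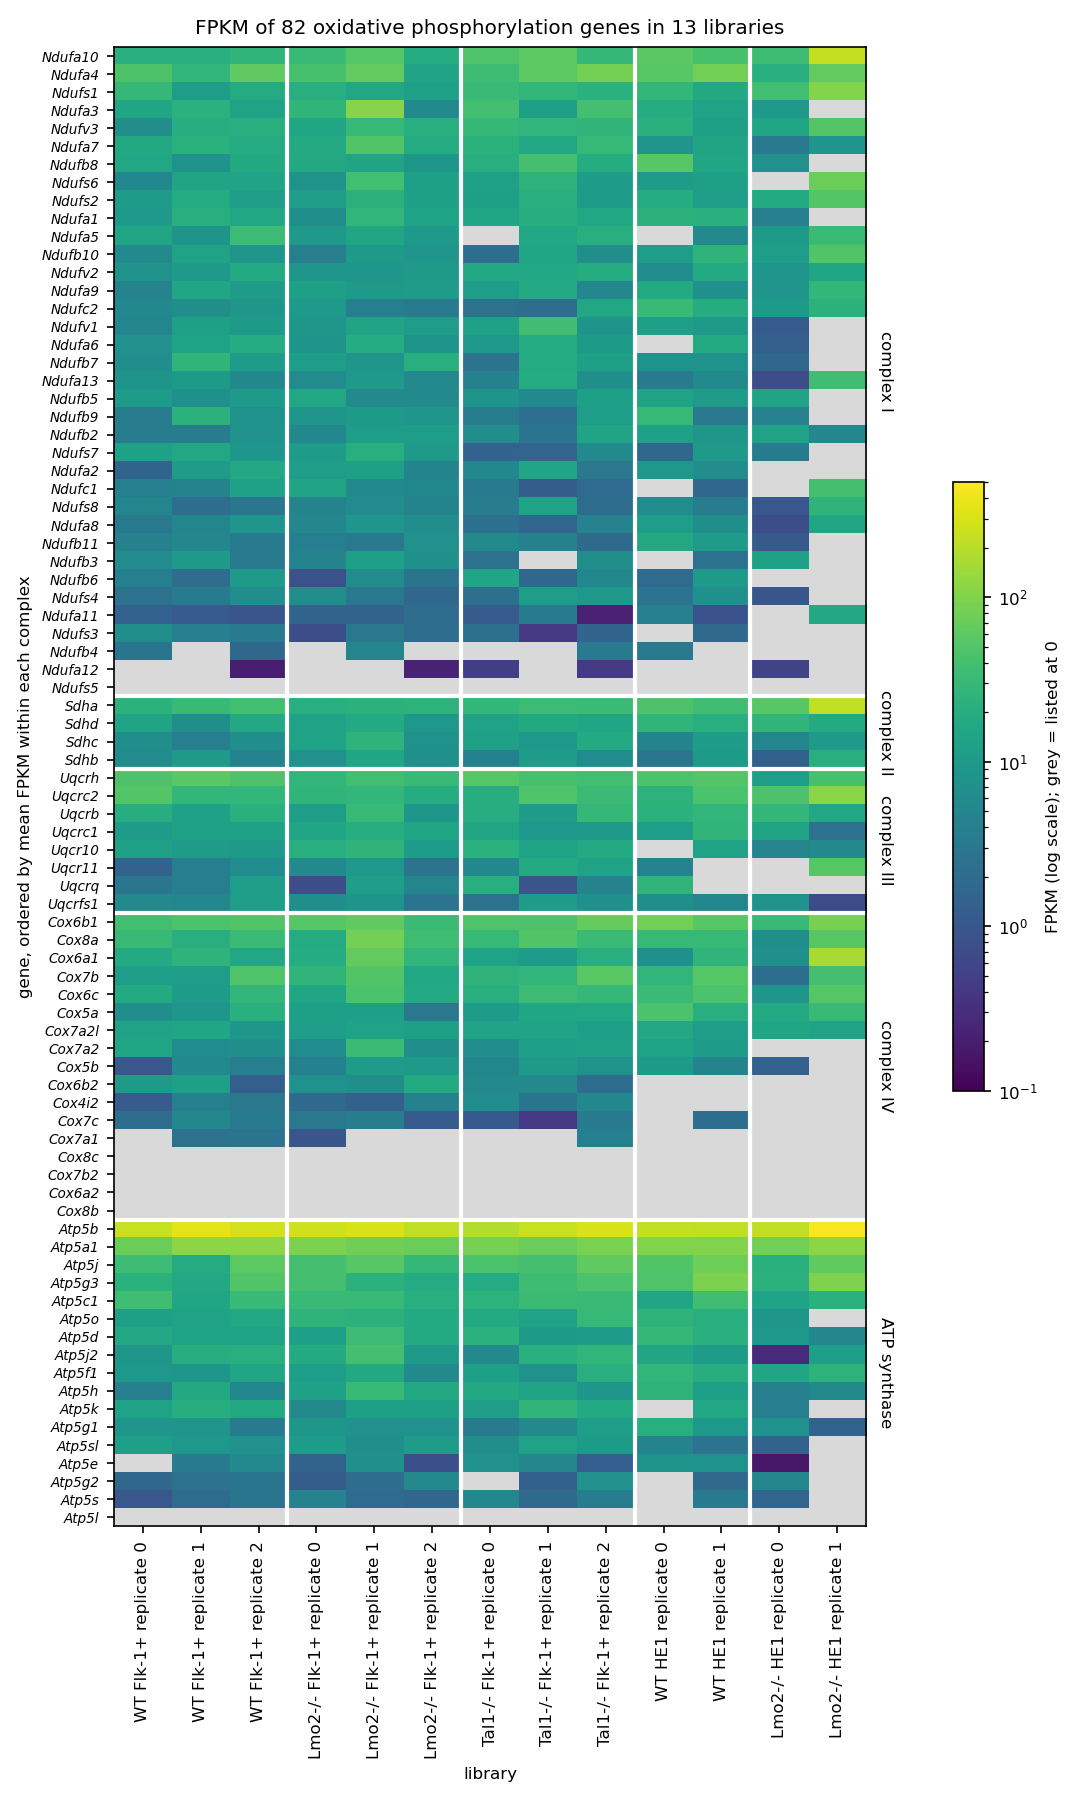
FPKM on a log colour scale of the 82 genes (rows, ordered by mean within each complex) in the 13 libraries (columns, grouped by genotype and stage); grey cells are genes listed at 0. Atp5b is the highest gene in every column, and Lmo2-/- HE1 replicate 1 has the most grey cells, 36 of 82.

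Several genes of the set are paralogues, most of which differ in the tissues where they are known to act. Cox6a2, Cox7b2, Cox8b and Cox8c, the muscle or testis forms, were listed at 0 in all 13 libraries, while their general partners Cox6a1, Cox7b and Cox8a were above 0 in every library, at 7.15 to 162, 2.16 to 56.4 and 6.94 to 84.6 FPKM. The row of Cox6a2 covers a locus 73.2 times as long as the gene. Cox7a1, the heart and muscle form, was listed at 0 in 9 libraries and did not exceed 3.95 FPKM. Cox7a2l, a factor of respiratory supercomplexes, lay at 9.17 to 16.9 FPKM in all 13 libraries. Cox4i2, the lung form of subunit IV, was at 1.15 to 6.09 FPKM in the 9 Flk-1+ libraries and listed at 0 in the 4 HE1 libraries. Its general partner Cox4i1 had no row under that name. Cox6b2, the testis form of subunit VIb, showed the same split, with 1.31 to 18.1 FPKM in Flk-1+ cells and 0 listed in HE1.

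Atp5g1, Atp5g2 and Atp5g3 encode the same mature protein, the c subunit of the ATP synthase ring. Atp5g3 was the most abundant in every library, at 16.9 to 95.6 FPKM. Atp5g1 lay at 1.52 to 21.9 FPKM. Atp5g2, whose row also covers a microRNA gene, was listed at 0 in 3 libraries and reached 7.37 FPKM at most. Besides the Cox genes above, Ndufs5 and Atp5l were listed at 0 throughout. Both are general subunits, so a listed 0 in this table can be a failed estimate, and groups that hold one are given library by library.

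The promoters of these genes are known for short elements bound by NRF1, by ETS factors such as GABP and by YY1. RefSeq promoter windows of GRCm38.p6, from 250 bases before to 50 bases after the start, were found for 69 members (75 windows). GCGCATGCG, the NRF1 element, was present in 10.7% of the member windows and in 1.75% of all 32851 windows. CCGGAAG, the ETS element, was present in 21.3% against 8.86%. AAGATGGCG, the YY1 element, was present in 12% against 1.40%. Both strands were searched, a window counted once per element, and none of the 3 elements lies within another. Windows holding both NRF1 and ETS letters belonged to Cox6a1, Uqcr11, Atp5k and Atp5l. The first 3 are shown with 20 bases of flank, with matches in capitals, on the strand of the gene; they run over chr5:115348948-115349140 for Cox6a1, chr10:80406798-80406907 for Uqcr11 and chr5:108434361-108434469 for Atp5k, all on the minus strand.
Cox6a1: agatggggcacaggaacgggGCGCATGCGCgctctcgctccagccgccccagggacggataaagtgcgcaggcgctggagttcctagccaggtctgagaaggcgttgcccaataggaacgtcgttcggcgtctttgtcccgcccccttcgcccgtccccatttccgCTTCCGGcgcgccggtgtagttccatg
Uqcr11: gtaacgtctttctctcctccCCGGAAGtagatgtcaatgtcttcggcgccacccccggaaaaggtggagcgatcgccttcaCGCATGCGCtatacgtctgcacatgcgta
Atp5k: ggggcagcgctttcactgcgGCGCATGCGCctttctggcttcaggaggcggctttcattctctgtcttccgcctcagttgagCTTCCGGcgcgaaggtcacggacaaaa

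Of the 69 members with a promoter window, 27 held a match to any of the 3 elements. Of the called members described below, 15 had a promoter window and 3 held a match. They were Ndufs7 with the YY1 letters (chr10:80249453-80249498, plus strand), Ndufb7 with the ETS letters (chr8:83566718-83566764, plus strand) and Atp5h with the ETS letters (chr11:115419931-115419977, minus strand). A match is a description of these letters and not evidence of binding.
Ndufs7: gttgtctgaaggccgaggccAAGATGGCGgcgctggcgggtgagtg
Ndufb7: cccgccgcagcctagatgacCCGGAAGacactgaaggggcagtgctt
Atp5h: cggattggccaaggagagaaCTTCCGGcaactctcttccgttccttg

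The first comparison followed the members from Flk-1+ cells to HE1 in WT. No member was called, whereas 6.98% of all 13802 tested genes were. Values of log2(FPKM + 1) were fitted with limma over all 13 libraries, and a gene was called where the Benjamini-Hochberg adjusted p was under 0.05 and either group had a mean of more than 10 FPKM. In bulk RNA, fewer expressing cells and less RNA per cell cannot be told apart. By the same fit 9 members had an unadjusted p below 0.05, against 3302 of all tested genes. The 75 members had a median log2 fold change of 0.16, against 0.11 for all tested genes, and it turned to -0.21 with quantile normalisation and -0.11 when libraries were rescaled to a common median. The libraries of both stages did not overlap for 23 members (30.7%), 14 of them higher in HE1, against 44.9% of all tested genes.

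Within this comparison the members lay on both sides. Ndufb11, an accessory subunit of the membrane arm of complex I, was at 4.12, 5.18 and 3.31 FPKM in WT Flk-1+ cells and at 17.3 and 11.2 in WT HE1, a log2 fold change of 1.54 ± 0.53 (SE) with an adjusted p of 0.0907 in limma. Cox6b2 was at 10.3, 12.4 and 1.31 FPKM in WT Flk-1+ cells and listed at 0 in both WT HE1 libraries. Its adjusted p was 0.0251 and that of Cox4i2 0.0435, but neither reached the FPKM required of a call. By complex the medians were 0.18 for complex I, 0.34 for complex II, -0.12 for complex III, 0.16 for complex IV and 0.36 for ATP synthase. With quantile normalisation all 5 were below 0. With 1 library left out at a time, the median of the members ran from -0.0 to 0.36. Without WT Flk-1+ replicate 2 Cox6b2 was called lower, against 597 of 13702 tested genes called in either direction. Without Tal1-/- Flk-1+ replicate 0 Ndufa5 was called lower, against 915 of 13627. Ndufb11 was called higher with array weights, against 1682 of 13802. It was also called higher without either 1 of the Lmo2-/- HE1 libraries, which leaves that group with 1 library.

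In the Lmo2-/- cells 49 of the 75 members (65.3%) had a log2 fold change below 0 over the same step, against 41.7% of all tested genes. Among transcripts of at most 1000 nt, where most members lie, the shares were 73.2% and 72.6%. From Lmo2-/- Flk-1+ cells to the libraries labelled Lmo2-/- HE1, 13 members were called lower (17.3% of the 75, against 2.38% of all tested genes) and 3 higher (4%, against 17.2%). The members had a median log2 fold change of -0.84 and all tested genes one of 0.30, a difference of -1.15. Complex I had 8 members called lower and 1 higher, complex II 1 higher, complex III 1 higher, complex IV 2 lower and ATP synthase 3 lower. The medians were -0.90, 0.09, -0.59, -0.92 and -1.04 in that order, and that of complex II turned to -0.70 with quantile normalisation and -0.38 with rescaling to a common median. Under quantile normalisation, which set the median of all tested genes to 0.02, the calls were 16 lower and none higher. When libraries were rescaled to a common median, 14 members were called lower and 2 higher. Of all 13802 tested genes 1248 and 1789 were called in either direction in these 2 fits.

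**Figure D2:**
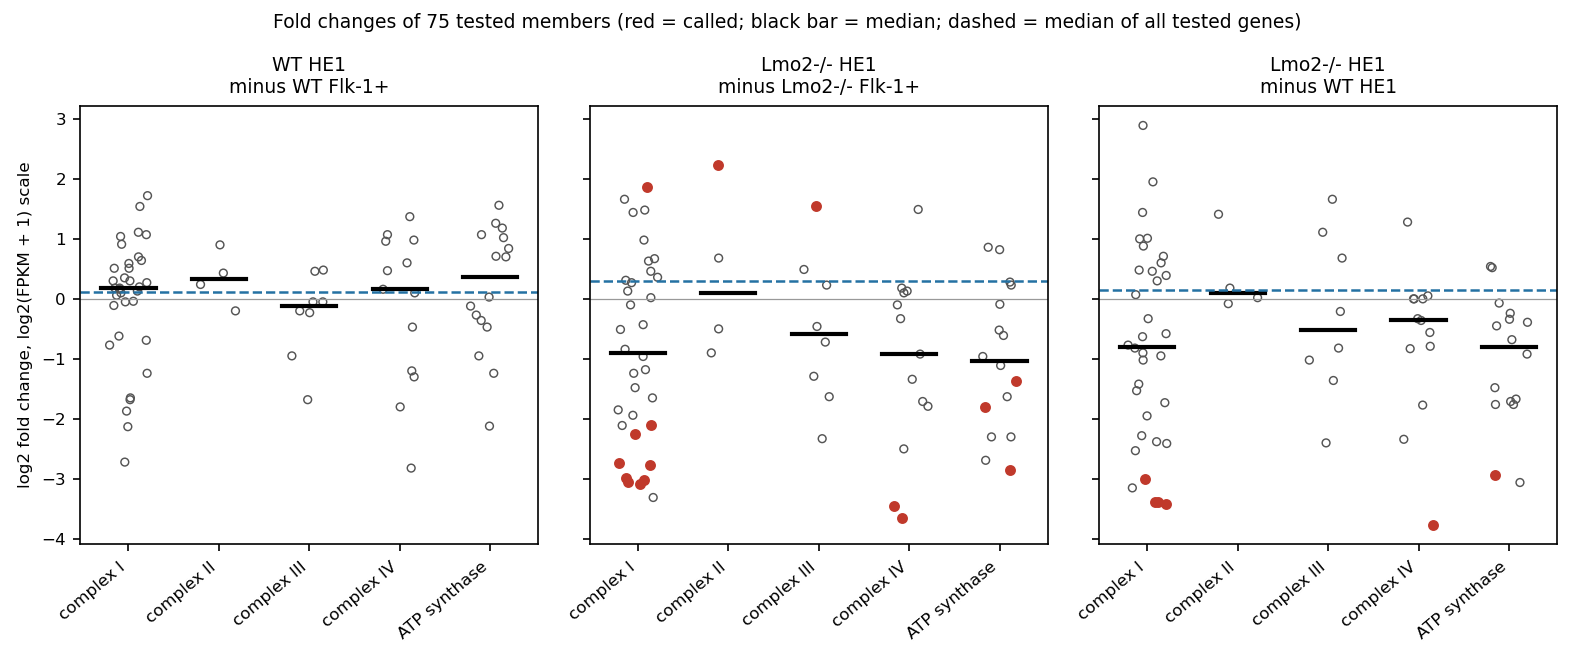
Log2 fold change of the 75 tested members (points) by complex in the stage comparison of WT, that of Lmo2-/- and the comparison of Lmo2-/- with WT HE1; red points are called, black bars are medians and dashed lines the median of all tested genes. The bars lie near the dashed line in WT and below it in both comparisons of Lmo2-/- HE1, where the called members number 16 and 6.

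The lowest adjusted p among the members called lower belonged to Cox7a2, the general form of subunit VIIa (chromosome 9, 79755361 to 79759878). Cox7a2 was at 6.33, 33.0 and 7.02 FPKM in Lmo2-/- Flk-1+ cells and listed at 0 in both Lmo2-/- HE1 libraries (adjusted p = 0.00148, limma). Because 1 group is listed at 0, no fold change is given. Ndufv1, the NADH-binding flavoprotein of complex I (chromosome 19, 4007384 to 4012806), was at 8.93, 14.6 and 12 FPKM and then at 1.19 and 0. Its log2 fold change was -3.09 ± 0.59 (SE, adjusted p = 0.00273), and it kept its call under all 24 alternatives that could be run for it. Cox6b2 followed, at 7.54, 7.02 and 18.1 FPKM before and listed at 0 in both HE1 libraries (adjusted p = 0.00412). The HE1 values of these 3 genes all lay below every Flk-1+ value of the same genotype.

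The other members called lower, named here outside the naming rule, were Ndufa1, Ndufa3, Ndufa6, Ndufa7, Ndufb7, Ndufb8, Ndufs7, Atp5d, Atp5h and Atp5o. They include accessory subunits of complex I, an iron-sulphur subunit of its core (Ndufs7) and stalk subunits of ATP synthase (Atp5d, Atp5h, Atp5o), and their log2 fold changes ran from -3.06 for Ndufb7 to -1.37 for Atp5d. Ndufa7 was at 18.2, 49.6 and 19.0 FPKM in Flk-1+ cells and at 3.08 and 8.62 in HE1. Atp5h was at 13.3, 31.9 and 17.6 FPKM and then at 4.09 and 5.73. Both genes were above 0 in all libraries, and so was Atp5d, whereas the other 7 were listed at 0 in Lmo2-/- HE1 replicate 1. Ndufa3 was the only member called lower whose libraries overlapped, with 10.1 FPKM in HE1 replicate 0 and 5.88 in Flk-1+ replicate 2.

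The 3 members called higher from Lmo2-/- Flk-1+ to HE1 were Sdha, Ndufs1 and Uqcrc2. Sdha, the flavoprotein of succinate dehydrogenase (chromosome 13, 74322254 to 74350280), was at 20.7, 23.5 and 24.5 FPKM in Flk-1+ cells and at 54.3 and 225 in HE1. Its log2 fold change was 2.23 ± 0.47 (SE, adjusted p = 0.00463). Ndufs1, the largest core subunit of complex I (chromosome 1, 63143596 to 63176833), rose from 21.6, 16.0 and 13.1 to 38.3 and 103 FPKM, by 1.86 ± 0.47 (adjusted p = 0.0124). Uqcrc2, a core protein of complex III (chromosome 7, 120635176 to 120659524), rose from 26.0, 28.1 and 19.5 to 46.8 and 113 FPKM, by 1.55 ± 0.48 (adjusted p = 0.0312). In each of these genes both HE1 libraries lay above all Flk-1+ libraries, and replicate 1 was the higher of the HE1 libraries. None of the 3 was called with quantile normalisation, although each kept its direction. The Ndufs1 row covers a locus 6.68 times as long as the gene, so its reads may include others.

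Complex II therefore did not move as a block. Sdhb, the iron-sulphur subunit, was at 7.51, 15.6 and 7.08 FPKM in Lmo2-/- Flk-1+ cells and at 1.39 and 21.9 in Lmo2-/- HE1 (log2 fold change -0.50 ± 0.81, adjusted p = 0.674). Sdhc, a membrane anchor, was at 14, 25.1 and 8 FPKM and then at 5.01 and 10.1 (-0.90 ± 0.53, adjusted p = 0.231). Sdhd, the other anchor, was at 13.5, 18.1 and 9.49 FPKM and then at 26.0 and 18.5 (0.68 ± 0.42, adjusted p = 0.244). In WT the 4 genes had mean FPKM of 30.9 ± 7.08, 6.78 ± 2.65, 5.98 ± 1.85 and 12.8 ± 5.19 (SD, n = 3) in Flk-1+ cells for Sdha, Sdhb, Sdhc and Sdhd. In WT HE1 they had 41.4 ± 6.85, 6.5 ± 5.22, 7.59 ± 4.21 and 23.4 ± 3.87 (SD, n = 2), and no Sdh gene was called in that comparison. The libraries of Sdhd did not overlap between the stages in WT or in Lmo2-/-, with HE1 higher in both.

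The number of members called in the stage comparison of Lmo2-/- cells depended on single libraries. It was 10 without Lmo2-/- Flk-1+ replicate 1 and 10 without Lmo2-/- Flk-1+ replicate 2. Of all tested genes 2240 of 13692 and 1903 of 13658 were called in these fits. A fit of these groups alone called 2 members, Ndufv1 and Cox6b2, against 1109 of 13802 tested genes. Most of the 16 calls were lost without Lmo2-/- HE1 replicate 1. Without Lmo2-/- HE1 replicate 0 more members were called higher than in the main fit, and more of all tested genes were called. Over all fits with 1 library left out, the median of the members ran from -1.17 to -0.46. In a fit leaving a group with 1 library, that library is assumed to vary as the other groups do.

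The comparison of the libraries labelled Lmo2-/- HE1 with those labelled WT HE1 asked which members differed between the genotypes at the later stage. Lower in Lmo2-/- were 6 members (8% of the 75, against 0.855% of all tested genes), and none was called higher, against 2.15%. Complex I held 4 of the 6, complex IV 1 and ATP synthase 1. The members had a median log2 fold change of -0.58, against 0.15 for all tested genes, a difference of -0.73. By complex the medians were -0.79 for complex I, 0.10 for complex II, -0.52 for complex III, -0.36 for complex IV and -0.80 for ATP synthase, and that of complex II turned to -0.24 with quantile normalisation and -0.11 with rescaling to a common median. Library values did not overlap between the genotypes for 18 members with Lmo2-/- lower (24.0%, against 13.8% of all tested genes) and for 4 with Lmo2-/- higher (5.33%, against 25.9%).

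Ndufb11 (chromosome X, 20615326 to 20617619) had the lowest adjusted p of the members between the HE1 genotypes. It was at 17.3 and 11.2 FPKM in WT HE1 and at 1.08 and 0 in Lmo2-/- HE1, a log2 fold change of -3.38 ± 0.58 (SE, adjusted p = 0.00718, limma). Its row covers a locus 15.5 times the length of the gene. Cox7a2 was at 14.2 and 11.1 FPKM in WT HE1 and listed at 0 in both Lmo2-/- HE1 libraries (adjusted p = 0.0102). Ndufa1, an accessory subunit of the membrane arm (chromosome X, 37187588 to 37191163), was at 24.0 and 22.2 FPKM and then at 4.10 and 0, a log2 fold change of -3.41 ± 0.71 (adjusted p = 0.0176). All 3 genes had their Lmo2-/- HE1 values below every one of the other 11 libraries.

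The other members called lower were Ndufv1, Ndufb8 and Atp5o, again named outside the rule. Ndufv1 was at 12.3 and 9.54 FPKM in WT HE1 and at 1.19 and 0 in Lmo2-/- HE1 (adjusted p = 0.0212). Ndufb8 was at 55.2 and 15.5 FPKM and then at 7.41 and 0 (adjusted p = 0.0393), in a row shared with Sec31b and another gene. Atp5o, which encodes the subunit joining the outer stalk to the catalytic head, was at 25.3 and 21.8 FPKM and then at 9.15 and 0 (adjusted p = 0.0475), in a row shared with Donson. Of these 6 genes, 5 were also called lower from Lmo2-/- Flk-1+ to Lmo2-/- HE1, a comparison that shares the Lmo2-/- HE1 libraries. Sdha, Ndufs1 and Uqcrc2 were higher in both Lmo2-/- HE1 libraries than in both WT HE1 libraries, but with adjusted p of 0.143, 0.138 and 0.254 they were not called.

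**Figure D3:**
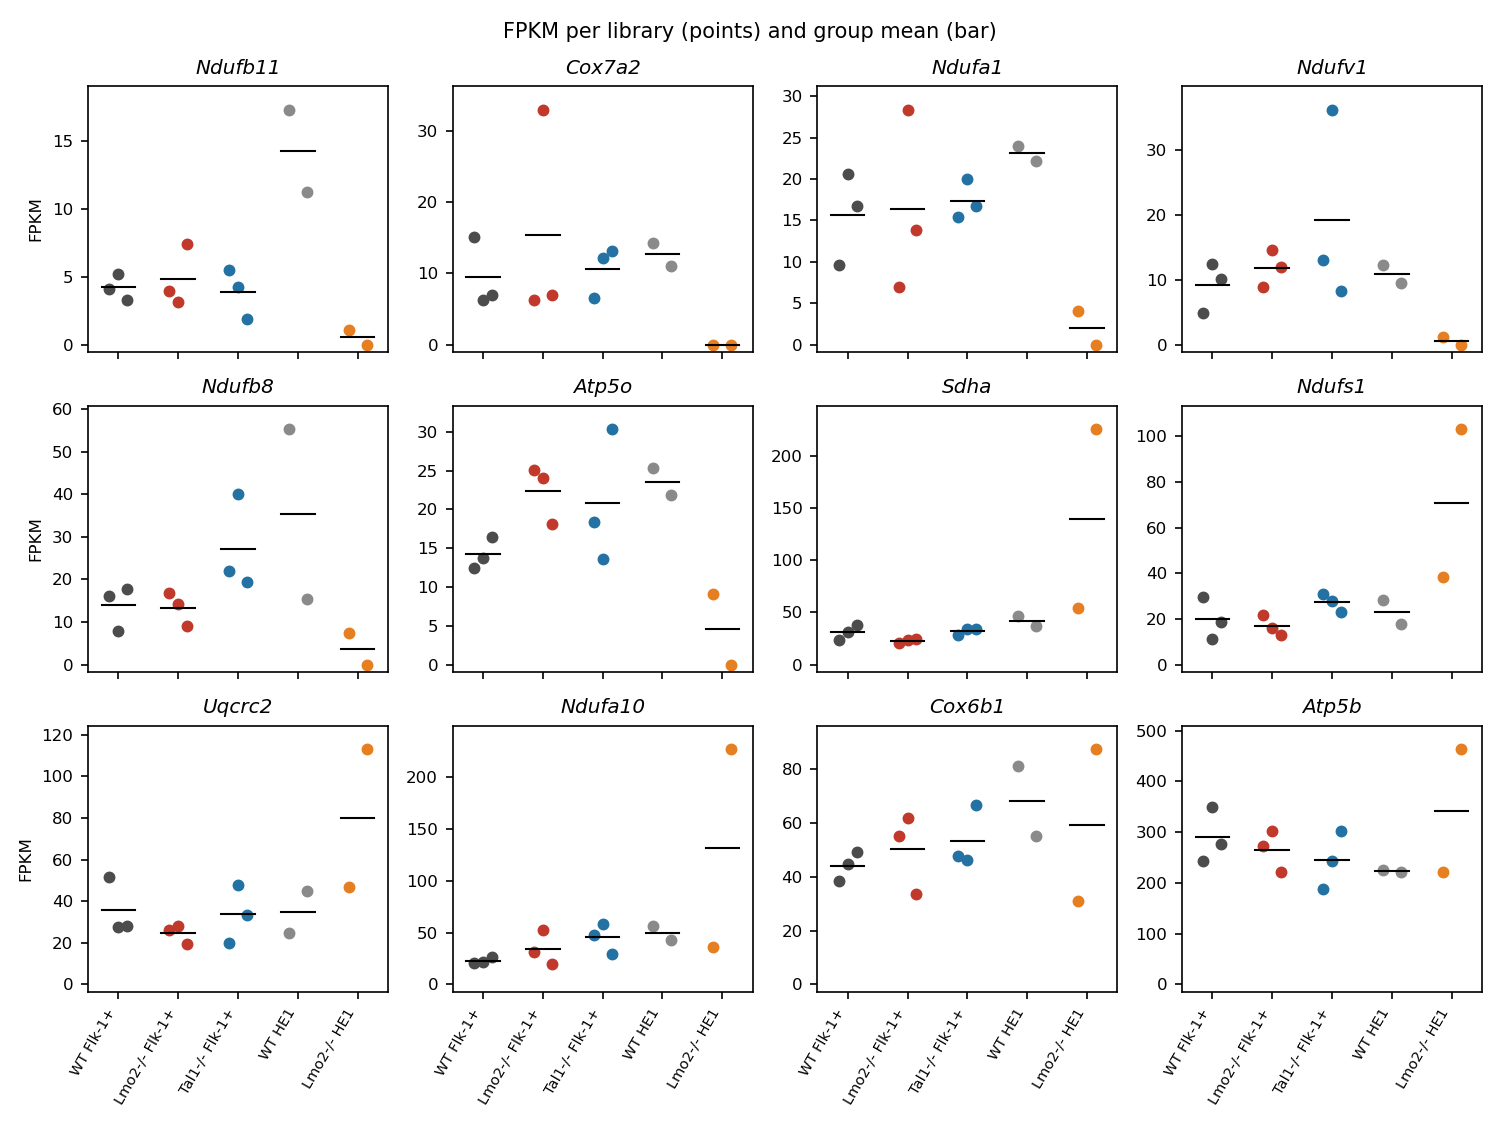
FPKM (linear axis, from 0) of 12 members in each library (points) with the group mean (bar), for 3 libraries of each Flk-1+ group and 2 of each HE1 group. Ndufb11, Cox7a2, Ndufa1, Ndufv1, Ndufb8 and Atp5o are lowest in Lmo2-/- HE1, where Cox7a2 is listed at 0 in both libraries, while Sdha, Ndufs1, Uqcrc2 and Ndufa10 reach 103 to 227 FPKM in 1 of them.

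The calls between the HE1 genotypes changed with each HE1 library. The 6 calls were all lost without Lmo2-/- HE1 replicate 1, and most of them were lost without either 1 of the WT HE1 libraries. Without Lmo2-/- HE1 replicate 0 members were called both lower and higher, and more of all tested genes were called than in the main fit. Leaving out a HE1 library leaves its group with 1 library, so the counts of calls of these fits enter only the ranges over all fits with 1 library left out. Over all fits with 1 library left out, the median of the members ran from -0.88 to -0.07. A fit of the HE1 libraries alone called no member and none of the 13802 tested genes. The 40 members above 0 in every library leave out any gene that fell to a listed 0. Among them no member was called between the HE1 genotypes, against 283 of all 7863 such genes. Their median was -0.29, against 0.46 for all such genes.

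Of the markers of other cell types, Pdgfra was called between the HE1 genotypes, and no smooth muscle, cardiac, haematopoietic or pluripotency marker was (limma, 1, 1, 0 and 0 at an unadjusted p below 0.05). The 4 smooth muscle markers summed to between 184 and 219 FPKM in WT HE1 and to 330 and 840 in Lmo2-/- HE1, of which Acta2 made up 263 and 816, against 165 and 114 in WT. Tagln was at 50.5 and 53.7 FPKM in WT HE1 and at 59.0 and 24.1 in Lmo2-/- HE1, Cnn1 and Myl9 were listed at 0 in Lmo2-/- HE1 replicate 1, and the median over the 4 genes was -0.09 on the log2 scale. Pdgfra, a mesoderm marker whose row also holds a microRNA gene, was at 2.98 and 1.01 FPKM in WT HE1 and at 37.3 and 94.5 in Lmo2-/- HE1. The 7 cardiac markers summed to 9.42 and 9.72 FPKM in WT and to between 2.24 and 13.6 in Lmo2-/- HE1, and the 6 haematopoietic markers to 17.1 to 21.3 and 7.83 to 32.9, with Gata1, Spi1 and Hba-x at 0 in all of them. The 5 mesoderm markers summed to 240 to 277 and 213 to 238 FPKM, with T and Mesp1 at 0, and the 5 pluripotency markers were at 0 in all HE1 libraries. Emcn, of the 7 endothelial markers, was listed at 0 in both Lmo2-/- HE1 libraries. The part of these cells in the members' values was not tested.

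An interaction term asked whether the stage change of Lmo2-/- cells differed from that of WT cells. No member passed in limma (0.348% of all tested genes did), with 17 members at an unadjusted p below 0.05 against 1672 of all tested genes. The lowest adjusted p were 0.0640 for Ndufb11 (log2 difference -3.48 ± 0.75, SE) and 0.0649 for Cox7a2, and the median over the members was -0.51 against 0.23 for all tested genes. For 6 members the libraries of neither genotype overlapped between the stages and the directions were opposite, higher in WT HE1 and lower in Lmo2-/- HE1 (8%, against 2.33% of all tested genes in either order). They were Ndufa1, Ndufb11, Atp5d, Atp5e, Atp5g1 and Atp5o. With 1 library left out at a time, the median of the interaction over the members ran from -0.99 to -0.34.

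At the Flk-1+ stage no member was called between genotypes. Against WT, Lmo2 was not called in Lmo2-/- cells nor Tal1 in Tal1-/- cells, so the lack of calls does not show that the members were equal. In the comparison of Lmo2-/- with WT, 0.0% of all tested genes were called, and limma gave an unadjusted p below 0.05 to 2 members, Sdhc and Atp5h, and to 307 of all tested genes. The median of the members was 0.12 and that of all tested genes -0.01. The libraries did not overlap for 7 members (9.33%), against 8.21% of all tested genes. Sdhc was at 7.03, 3.85 and 7.07 FPKM in WT and at 14, 25.1 and 8 in Lmo2-/-, a log2 fold change of 1.16 ± 0.48 (SE) with an adjusted p of 1.00.

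In Tal1-/- against WT Flk-1+ cells, 0.0% of all tested genes were called too, and 3 members (Ndufs3, Ndufs7 and Sdhc) and 843 of all tested genes had an unadjusted p below 0.05 in limma. The median of the members was again 0.12, and the libraries did not overlap for 8 members (10.7%), against 12.6% of all tested genes. Ndufs7, an iron-sulphur subunit of complex I, was at 12.9, 15.8 and 8.76 FPKM in WT and at 1.44, 1.59 and 5.67 in Tal1-/-, without overlap (log2 fold change -1.92 ± 0.66, adjusted p = 0.638). Sdhc was at 13.1, 9.65 and 18.5 FPKM in Tal1-/-, above all WT libraries as in Lmo2-/-, in 2 comparisons that share the WT libraries. Between Tal1-/- and Lmo2-/- Flk-1+ cells no member was called either (0.0145% of all tested genes were), and 1 member, Ndufs7, and 822 of all tested genes had an unadjusted p below 0.05.

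Transcript length moved with the HE1 comparisons. The tested members are short, with a median of 913 nt against 2970 nt for all tested genes, and 41 of them were at most 1000 nt long. Length here is that of the longest GENCODE M21 transcript, which need not be the one expressed. Ndufb2 is annotated at 4371 nt and Atp5g1 at 4715 nt. Where a row holds further gene names, the longest transcript of any of them counts. Atp5o, 838 nt by itself, therefore lies among the genes over 1000 nt, and Ndufb8, 2142 nt by itself, among those from 3000 to 4000 nt. From Lmo2-/- Flk-1+ to Lmo2-/- HE1 the median over all tested genes ran from -0.79 on the log2 scale for transcripts up to 600 nt to 1.37 for those over 6000 nt. The members up to 1000 nt had a median of -1.18, against -0.68 for all tested genes of that length, and 22% of them were called lower, against 7.91%. Over 1000 nt, 12.1% of the members were called lower, against 1.69% of all tested genes, which are longer than the members there. In narrower classes from 1000 to 3000 nt the members' medians did not lie below genes of their own length. The median of 12 members of 1000 to 1500 nt was -0.46 against -0.52 for all tested genes, that of 12 members of 1500 to 2000 nt was -0.16 against -0.17, and that of 5 members of 2000 to 3000 nt was 1.48 against 0.14. By the length of the row only 4 members were longer, with medians below those of all tested genes.

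Between the HE1 genotypes the members lay below genes of their own length in the shortest classes and in the longest classes that held members. The medians were -0.92 against 0.00 up to 600 nt (15 members) and -0.80 against -0.30 from 600 to 1000 nt (26 members). They were -0.02 against -0.16 from 1000 to 1500 nt, -0.29 against -0.06 from 1500 to 2000 nt and 0.88 against 0.08 from 2000 to 3000 nt. With 2 members each, they were -1.69 against 0.30 from 3000 to 4000 nt and -1.04 against 0.44 from 4000 to 6000 nt. Of the members up to 1000 nt 7.32% were called lower, against 2.79% of all tested genes of that length.

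When the length trend of each library was removed, an alternative chosen after the data had been seen, the same 6 members were called lower between the HE1 genotypes, with a median of -0.30 over 74 members. In the stage comparison of Lmo2-/- cells 11 members were then called, 6 lower and 5 higher, of which 9 were among the 16. The median was -0.23. Of all 13303 genes in this fit, 296 were called between the HE1 genotypes and 1143 in that stage comparison. Listed zeros followed length as well. Of the tested genes up to 1000 nt, 66.3% were listed at 0 in Lmo2-/- HE1 replicate 1, 48.8% in Lmo2-/- HE1 replicate 0, 47.3% and 38.3% in WT HE1 and 17.3% to 36.3% in the Flk-1+ libraries. Of the 82 members 36, 20, 20 and 13 were listed at 0 in the HE1 libraries in the same order, and 6 to 10 in each Flk-1+ library. For the 40 members above 0 in every library the median from Lmo2-/- Flk-1+ to HE1 was 0.13, against 0.89 for all such genes.

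**Figure D4:**
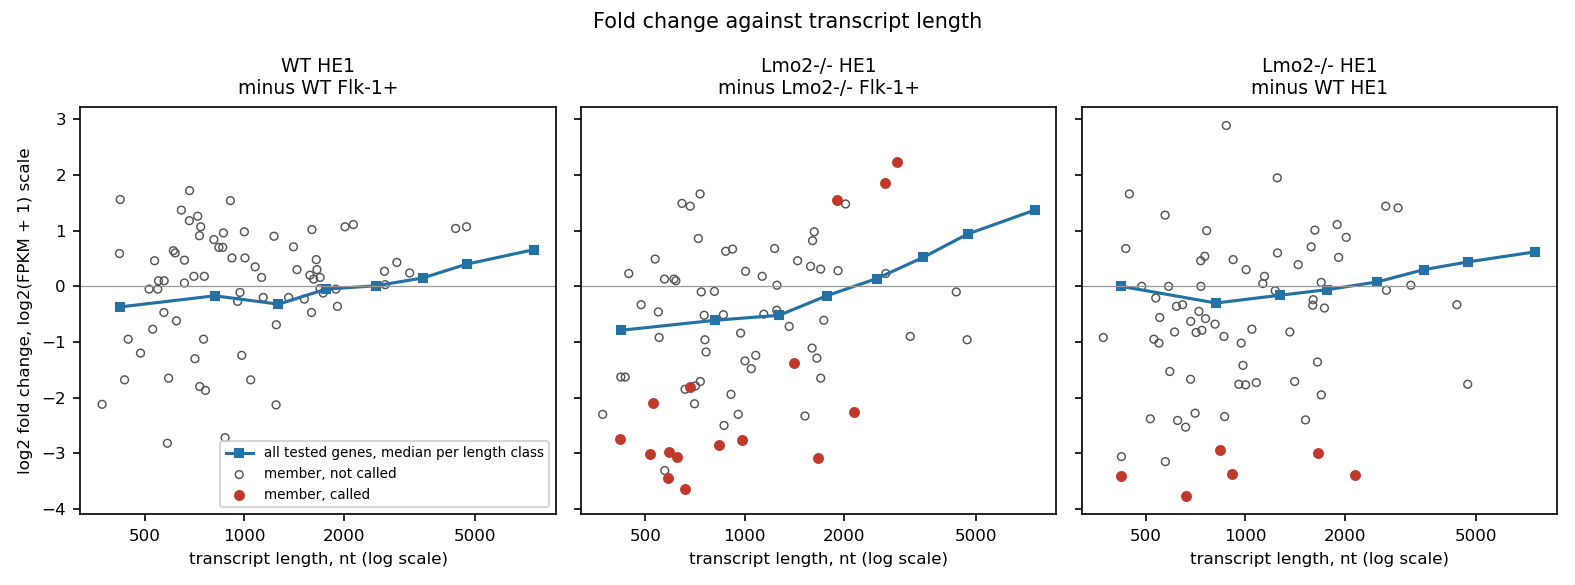
Log2 fold change of the members (circles; red when called) against transcript length on a log axis, with the median of all tested genes in 8 length classes (blue squares), in the 3 comparisons with HE1. The blue line climbs from -0.79 to 1.37 in the stage comparison of Lmo2-/-, and most called members lie below it. Circles stand at the longest transcript of the member itself, while the length classes take the longest of any gene named in a row.

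The genes that serve these complexes were examined as whole lists. The mitochondrial ribosome, which translates the subunits encoded in mitochondrial DNA, had 74 tested genes. From Lmo2-/- Flk-1+ to HE1 4 were called lower and 2 higher, 5.41% and 2.70% of the list against 2.38% and 17.2% of all tested genes, with a median of -0.68 against 0.30. Between the HE1 genotypes 2 were called lower, Mrpl24 and Mrpl52 (2.70% against 0.855%), with a median of -0.37 against 0.15. Mrpl52 was at 25.3 and 22.4 FPKM in WT HE1 and at 2.06 and 0 in Lmo2-/- HE1. The 13 subunits encoded in mitochondrial DNA share 4 rows with tRNA and rRNA genes and cannot be read singly. None of these rows was called in the 3 comparisons with HE1 (limma, none at an unadjusted p below 0.05), and the row of mt-Cytb, the cytochrome b of complex III, was at 1360 and 1420 FPKM in WT HE1 and at 608 and 1460 in Lmo2-/- HE1.

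Enzymes of the TCA cycle feed the chain with NADH and succinate. From Lmo2-/- Flk-1+ to HE1 4 of 14 were called higher (28.6%, against 17.2% of all tested genes) and none lower, with a median of 0.61 that turned to -0.41 with quantile normalisation. Between the HE1 genotypes none was called or had an unadjusted p below 0.05 (limma, median 0.08, or -0.38 with quantile normalisation). Cs, citrate synthase, was at 25.6, 28.8 and 24.1 FPKM in Lmo2-/- Flk-1+ cells and at 77.0 and 107 in Lmo2-/- HE1 (log2 fold change 1.76 ± 0.34, adjusted p = 0.00299), and it also rose in WT, from 43.8, 22.7 and 25.5 to 73.2 and 68.8 FPKM (1.24 ± 0.34, adjusted p = 0.0373). Ogdh and Dld, of the oxoglutarate dehydrogenase complex, rose by 1.63 ± 0.45 and 1.32 ± 0.39 in the Lmo2-/- comparison. The interaction called no TCA cycle gene (limma, 2 at an unadjusted p below 0.05).

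Of 13 complex I assembly factors, Acad9 was called higher from Lmo2-/- Flk-1+ to HE1 (7.69%, against 17.2% of all tested genes). Ndufaf2 was called lower between the HE1 genotypes (7.69% against 0.855%), at 25.7 and 9.74 FPKM in WT HE1 and listed at 0 in both Lmo2-/- HE1 libraries. Of 27 assembly factors of the other complexes, Cox17 was called higher (3.7% against 17.2%) and Cox16 lower (3.7% against 2.38%) in the stage comparison of Lmo2-/-. Coa3 was called higher between the HE1 genotypes (3.7% against 2.15%). The rows of Cox17 and Cox16 hold other genes too. Among 15 tested regulators of mitochondrial gene expression, Polg, the mitochondrial DNA polymerase, was at 30.3, 41.8 and 41.1 FPKM in Lmo2-/- Flk-1+ cells, 130 and 400 in Lmo2-/- HE1 and 65.7 and 55.6 in WT HE1. It was called higher in all 3 comparisons with HE1. From Lmo2-/- Flk-1+ to HE1 4 of the 15 regulators were called, 3 higher and 1 lower, against 17.2% and 2.38% of all tested genes. Lrpprc, which stabilises mitochondrial mRNA, rose by 1.21 ± 0.36 (adjusted p = 0.0274, limma), and Gabpb1, a subunit of GABP, by 1.2 ± 0.38 (adjusted p = 0.0334). Tfam, which packages mitochondrial DNA, was called lower, at 14.9, 22 and 9.61 and then 4.70 and 1.28 FPKM. Of 8 tested carriers and cytochrome c genes none was called in these comparisons, with 3, 1 and 0 at an unadjusted p below 0.05 in limma.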

How the data were processed

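RNAseq reads of polyA RNA had been aligned to GRCm38 (mm10) with TopHat 2.0.9 and assembled with Cufflinks 2.0.0. From Cuffnorm the authors deposited FPKM of each library. Condition means, p-values and fold changes of their Cuffdiff comparison were not used, apart from gene names. Replicates are biological according to the study, and their numbers were read from column headers. Genes were tested (13802) if their locus exceeded 200 bp and 2 or more of the 13 libraries reached 1 FPKM. The two-sided tests used limma 3.58.1 (R 4.3.3, trend) on log2(FPKM + 1), which understates the change of low genes. In simulated data of WT HE1 against WT Flk-1+, 46.5% of 200 genes changed by 2 (log2) were called, and 6 unchanged genes, among 13059. That rate was not split by FPKM, and the median of the members' mean FPKM was 10.8. It therefore gives no recovery rate for the members themselves. Comparisons with Lmo2-/- HE1 were not simulated. Gene positions are from GENCODE M21. Members and lists were chosen with earlier results of these data known. Given by library were the 3 called members with the lowest adjusted p per direction, the highest of each complex, paralogues and Sdh genes. Alternatives were other pseudocounts, filters, scalings and fits, and each library left out. The series' ChIPseq and DNase data were not used here.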

Additional observations from a re-analysis of the deposited data

How the results depend on the processing

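The numbers of members called, main value first, changed by more than 1.5 times as follows. In the stage comparison of WT (0) they were 2 with no FPKM criterion on calls and 1 with array weights. Of all 13802 tested genes 1345 and 1682 were called in these fits. From Lmo2-/- Flk-1+ to HE1 (16) they were 10 with no filter on low values and 2 in a fit of these groups alone. With array weights they were 4, and among genes above 0 in every library 7. Over all genes these fits called 2364 of 19692, 1109 of 13802, 976 of 13802 and 2670 of 7863, in the same order. Between the HE1 genotypes (6) they were 3 with quantile normalisation. They were 0 in a fit of these groups alone, with array weights, and among genes above 0 in every library. Over all genes these fits called 212, 0 and 51 of 13802 and 283 of 7863, in that order. For the interaction (0) they were 1 with a pseudocount of 0.1 and 1 with no trend, against 54 and 60 of all 13802 tested genes. Leaving out 1 library at a time gave 0 to 3, 10 to 27, 0 to 23 and 0 to 13 calls in these comparisons, and 0 to 0 in each Flk-1+ comparison. From Lmo2-/- Flk-1+ to HE1, between the HE1 genotypes and for the interaction, the highest counts came without Lmo2-/- HE1 replicate 0. More of all tested genes were called in that fit too. In the stage comparison of WT the highest count came without WT HE1 replicate 1, where fewer of all tested genes were called. Both fits leave a group with 1 library. The median of the members from Lmo2-/- Flk-1+ to HE1 turned from -0.84 to 0.13 among genes above 0 in every library, since 35 of the 75 tested members are then left out. The causes of the other changes were not tested. The replicate number as a block gave 15 calls from Lmo2-/- Flk-1+ to HE1 and 5 between the HE1 genotypes. Of all 13802 tested genes 2189 and 313 were called there. In the other fits that kept all libraries, 11 to 22 members were called from Lmo2-/- Flk-1+ to HE1. Of all genes tested in those fits 1143 to 3524 were called. Between the HE1 genotypes these fits called 4 to 6 members, and 296 to 626 of all genes tested. In the other comparisons no further count of the members changed in these fits. Same-numbered libraries correlated by -0.184 to 0.169, over 0.1 in 3 of 23 pairs, so the numbers were not taken to pair the libraries. No single called member changed direction under any alternative, and over all alternatives a member kept its call 377 times and lost it 157 times. Genes above 0, removal of the length trend and mean FPKM without Lmo2-/- HE1 replicate 1 were chosen after the data had been seen. FPKM without counts give no limit of detection, and 2 libraries per HE1 group limit every comparison with HE1.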

Other observations

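The 2 Lmo2-/- HE1 libraries disagreed on the members more than the WT HE1 libraries did. On the log2(FPKM + 1) scale 27 of the 75 tested members (36.0%) differed by more than 2 between the Lmo2-/- HE1 libraries, 15 higher and 12 lower in replicate 1, against 19.9% of all tested genes. Between the WT HE1 libraries 9 members (12%) differed by as much, against 5.93% of all tested genes. The genes named next were chosen after their values were seen. Ndufs6, a subunit of complex I, was listed at 0 in Lmo2-/- HE1 replicate 0 and at 73.0 FPKM in replicate 1. It was at 5.27 to 38.2 FPKM in the 9 Flk-1+ libraries. Uqcr11, a small subunit of complex III, was listed at 0 and at 52.9 FPKM, and Cox6a1 was at 7.15 and 162 FPKM. In the opposite direction Ndufb5 was at 14.7 FPKM in replicate 0 and listed at 0 in replicate 1, and Ndufb3 was at 12.9 FPKM and then listed at 0.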
